A study of Homo sapiens with 14 samples.

Results

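The p50 ChIP-seq regions of L1236 cells were the regions in which p50 chromatin immunoprecipitation was called above input DNA. Of the 14865 union regions, which hold the calls of p50, p52, RelA and RelB, those with a p50 summit were taken, and these were 10975 regions (73.8%). L1236 is an established Hodgkin lymphoma cell line, and the cells of every group were grown in RPMI medium with heat inactivated serum, without a treatment named in the labels. The p50 group had 2 replicates, both precipitated with the same goat polyclonal anti-p50 antibody after formaldehyde fixation, and the Input group had 6 libraries of DNA that was not precipitated. The p52, RelA and RelB groups had 2 replicates each and enter here only through their calls. The table gives 1 merged count, pileup and fold enrichment per region, so that the 2 signal values, one from each p50 replicate, were the only measure with replicates. Which replicate is value 1 and which is value 2 is not stated. The study's methods call the replicates biological, and the labels do not say whether they came from separate cultures.

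p50 is the DNA-binding product of the NFKB1 precursor p105. It has a Rel homology domain, which binds κB sites as a homodimer or together with another family member, but no transactivation domain of its own, which RelA, RelB and c-Rel carry. Dimers of p50 act as activators with Rel partners or with the cofactor Bcl-3, and p50 homodimers can also occupy κB sites without activating them. In the classical Hodgkin lymphoma cells the NF-κB system is constitutively active.

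To show the DNA of promoters with a p50 summit, the 250 bases before the start site are given for 7 genes with a paired symbol. Their p50 summit lay between 250 bp upstream and 50 bp downstream of the start, and their region was called for all subunits. Only genes with a RefSeq promoter sequence at hand could be shown, so that RELB, which met the other conditions, is left out. RRAGC, the strongest such promoter with p50 alone, is given as well. Sequences and coordinates are those of RefSeq genes on GRCh38.p14, whereas the regions are on hg18. Capitals mark matches to the κB consensus motif on either strand, with overlapping matches joined.
NFKBIA, chr14:35404750-35404999 (minus strand): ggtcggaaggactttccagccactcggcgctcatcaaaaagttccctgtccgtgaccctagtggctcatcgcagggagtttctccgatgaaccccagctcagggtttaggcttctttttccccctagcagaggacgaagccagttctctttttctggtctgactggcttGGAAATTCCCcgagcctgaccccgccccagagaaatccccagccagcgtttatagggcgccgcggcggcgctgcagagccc
BIRC3, chr11:102317234-102317483 (plus strand): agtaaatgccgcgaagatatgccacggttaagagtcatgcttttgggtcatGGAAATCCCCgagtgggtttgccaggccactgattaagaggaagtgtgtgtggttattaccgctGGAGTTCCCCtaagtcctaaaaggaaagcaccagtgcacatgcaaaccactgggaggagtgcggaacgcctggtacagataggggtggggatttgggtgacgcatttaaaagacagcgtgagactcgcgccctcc
TNFAIP3, chr6:137867009-137867258 (plus strand): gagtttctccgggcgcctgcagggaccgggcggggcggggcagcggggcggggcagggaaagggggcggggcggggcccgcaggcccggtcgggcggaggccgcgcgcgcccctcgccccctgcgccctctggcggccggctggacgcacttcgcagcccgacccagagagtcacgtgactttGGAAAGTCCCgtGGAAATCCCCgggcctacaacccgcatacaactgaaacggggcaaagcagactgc
TNFRSF9, chr1:7940840-7941089 (minus strand): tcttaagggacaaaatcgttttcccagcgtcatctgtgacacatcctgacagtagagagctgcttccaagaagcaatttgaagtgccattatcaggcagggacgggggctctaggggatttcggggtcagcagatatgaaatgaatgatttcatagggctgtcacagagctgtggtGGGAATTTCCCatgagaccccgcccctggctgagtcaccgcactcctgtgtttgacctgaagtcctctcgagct
REL, chr2:60881324-60881573 (plus strand): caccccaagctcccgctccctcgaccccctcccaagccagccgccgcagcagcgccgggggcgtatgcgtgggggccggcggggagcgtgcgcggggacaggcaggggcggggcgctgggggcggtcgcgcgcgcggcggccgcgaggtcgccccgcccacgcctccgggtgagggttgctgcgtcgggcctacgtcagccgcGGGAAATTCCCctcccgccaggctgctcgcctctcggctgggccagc
NFKB1, chr4:102501109-102501358 (plus strand): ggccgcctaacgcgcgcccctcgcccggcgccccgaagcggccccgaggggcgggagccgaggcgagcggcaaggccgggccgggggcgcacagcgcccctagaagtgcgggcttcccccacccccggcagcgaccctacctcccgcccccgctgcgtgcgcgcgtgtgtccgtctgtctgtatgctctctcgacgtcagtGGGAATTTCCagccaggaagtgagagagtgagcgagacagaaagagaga
IRF1, chr5:132490774-132491023 (minus strand): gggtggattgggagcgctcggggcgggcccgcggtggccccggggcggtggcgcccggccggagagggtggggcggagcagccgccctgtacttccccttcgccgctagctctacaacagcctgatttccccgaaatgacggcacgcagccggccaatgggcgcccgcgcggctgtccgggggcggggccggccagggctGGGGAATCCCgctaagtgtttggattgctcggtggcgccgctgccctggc
RRAGC, chr1:38859773-38860022 (minus strand): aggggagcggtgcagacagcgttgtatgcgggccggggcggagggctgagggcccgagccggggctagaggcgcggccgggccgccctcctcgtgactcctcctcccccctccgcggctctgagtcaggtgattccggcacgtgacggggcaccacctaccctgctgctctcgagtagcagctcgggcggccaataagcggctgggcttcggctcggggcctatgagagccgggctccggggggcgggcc

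All 7 promoters shown from regions called for every subunit held the κB motif, and that of RRAGC, a Rag GTPase of nutrient signaling, did not. Of 27305 promoters in the RefSeq table, from 250 bases before to 50 after the start, 2958 (10.8%) held it. Only 56 of the 79 genes with a symbol and a summit in this window (70.9%) had a promoter in the table, so that a comparison of motif shares between bound and other genes is void. Among these 56 promoters the motif was found in 7 of 7 with all subunits, in 10 of 33 with one or more but not all other subunits, and in 3 of 16 with p50 alone. The median GC content of the 56 promoters was 69.7%, against 58.3% of all promoters in the table, and its part in these counts was not tested.

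The p50 level at these promoters was above that of most p50 regions. The NFKBIA promoter, whose gene encodes the inhibitor IκBα, had a fold enrichment of 88.7 over input with 1152 reads, and its signal values were 3625 and 1169. BIRC3, an inhibitor of apoptosis, had a fold enrichment of 55.4 and signal values of 1433 and 1417. TNFAIP3, the ubiquitin-editing inhibitor A20, had 53.4 with signal values of 1580 and 703. Of these promoters, BIRC3 had nearly equal signal values, whereas those of NFKBIA were 3625 against 1169. TNFRSF9, the costimulatory receptor 4-1BB, had a fold enrichment of 48.9, with its summit 81 bp upstream of the start. REL, which encodes c-Rel, had 38.0, NFKB1 36.1, and the interferon regulatory factor gene IRF1 34.9. The p50 gene NFKB1 was thus bound at its own promoter, with the summit 15 bp upstream of the start and signal values of 787 and 1158. RRAGC had a fold enrichment of 34.9 and signal values of 924 and 829.

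Over all 10975 p50 regions the median density was 106.2 reads per kb of region width, with quartiles of 82.5 and 146.0 and a range of 31.5 to 959.5. The median pileup, which counts the fragments that overlap the summit, was 57, ranging from 20 to 315. The median fold enrichment, the ratio of ChIP to an input background at the summit with 1 added to each, was 16.8, with quartiles of 12.4 and 25.3. Thus 5728 regions (52.2%) lay between 10 and 20, 695 between 40 and 60, and 92 (0.838%) at 60 or above. Stronger regions were wider and more often shared. The width is that of the union region, which covers overlapping peaks of all subunits, so that shared regions can be wider by construction. The share with a call for another subunit was 59.9% at a fold enrichment of 10 to 20, 90.9% at 20 to 40, and 98.0% at 40 to 60.

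**Figure D1:**
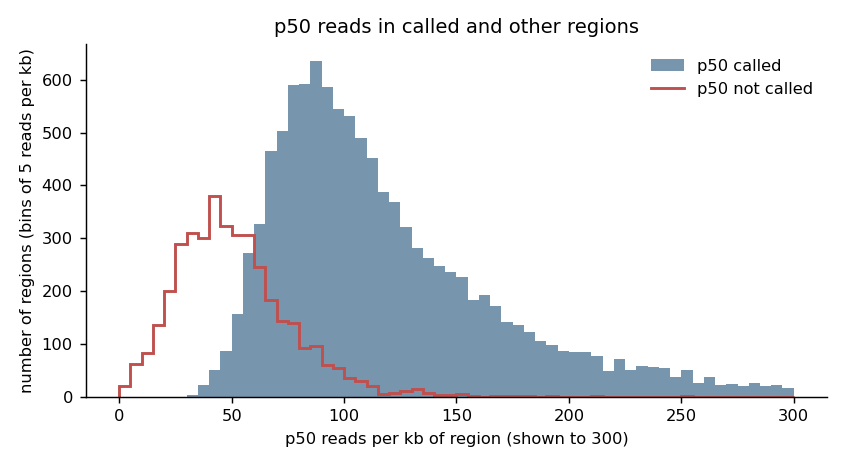
Number of union regions (y axis) by p50 reads per kb of region width (x axis, bins of 5, shown to 300) for regions with a p50 call (filled) and without one (line). Called regions centered on 106.2 reads per kb and the others on 47.5, and both overlapped between about 50 and 120 reads per kb.

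Regions without a p50 call were not free of p50 reads. The 3890 regions that were called only for other subunits had a median of 47.5 p50 reads per kb and a maximum of 254.0. Of these, 1202 (30.9%, Wilson 95% interval 29.5 to 32.4) reached the 5th percentile of the called regions, 59.5 reads per kb, and 117 reached the median of the called regions. At the TSS, 96 regions lacked a p50 call, and 56 of them (58.3%, 48.3 to 67.7) reached the 5th percentile. The intervals here and below cover counting error over regions only.

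The p50 signal values measured the spread between replicates. Value 1 exceeded value 2 in 6798 regions (61.9%), with a median ratio of 1.17, and the log2 ratio had an SD of 0.76 over the 10975 regions. After centering on the median, 8960 regions (81.6%) differed by less than 2-fold. Of the 1000 regions with the highest value 1, 664 were also among the 1000 highest by value 2. The ratio changed with the level: the median log2 ratio was -0.10 in the lowest 10% by fold enrichment (2.99 to 10.1) and 0.47 in the highest (36.4 to 99.95). Strong regions therefore carried more signal in value 1, and a difference in signal value between single regions of less than about 2-fold was within the replicate spread. The merged fold enrichment has 1 value per region, so its replicate spread is not known.

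The input background at each summit followed from pileup and fold enrichment, as pileup plus 1 divided by fold enrichment, minus 1. The Input libraries have no values of their own, so this background is implied and is not a count of input fragments. Its median was 2.42 fragments. The lowest value, 1.47, recurred in 1131 p50 regions (10.3%, within 0.001), and the 95th percentile was 4.65. This shared lowest value is read as a floor and not as the input measured at each of these summits. A small set stood apart: 28 p50 regions had a ratio of pileup to fold enrichment above 5 times its median. These regions had a median fold enrichment of 4.10, a median of 260.2 reads per kb, and a call for another subunit in 28 of 28, with all subunits called in 22. The densest p50 region of all, 959.5 reads per kb at chr6:58884033-58887415, had a background of 60.8 fragments and a fold enrichment of only 4.05. Next came chr1:121185486-121187111 with 923.7 reads per kb and a fold enrichment of 4.86. Of the 10 densest regions 5 were of this kind, and of the 10 with the highest fold enrichment none. Read density alone therefore ranked regions with much input among the strongest.

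Among the dense regions with low background, a region 10101 bp upstream of the gene of the housekeeping protein β-actin, ACTB, had 521.8 reads per kb, the highest pileup of all (315) and a fold enrichment of 64.5. The region on chromosome 11 at chr11:115300525-115301945, 420203 bp from the closest TSS, had 558.1 reads per kb and a fold enrichment of 60.7. The region in LRP1, a lipoprotein receptor gene, had 558.3 reads per kb but a background of 8.73 fragments and a fold enrichment of 24.96.

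The background differed between chromosomes. Over the 23 chromosomes with at least 100 p50 regions, its median ran from 1.56 fragments on chromosome 22, 1.64 on chromosome 13 and 1.67 on X to 2.97 on chromosomes 2 and 20. The median pileup of p50 regions was higher where the background was higher, from 47 on chromosome 13 and 49 on chromosome 22 to 61 on chromosome 20 and 64 on chromosome 19 (Spearman's rho 0.76, Pearson's r 0.77, 23 chromosomes). The median fold enrichment ran the other way, from 19.8 on X to 15.4 on chromosome 20 (rho -0.86, r -0.84). Background enters fold enrichment by construction, and the chromosomes share the same libraries, so these are descriptions. The part of the background in the share of p50 calls was not tested.

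**Figure D2:**
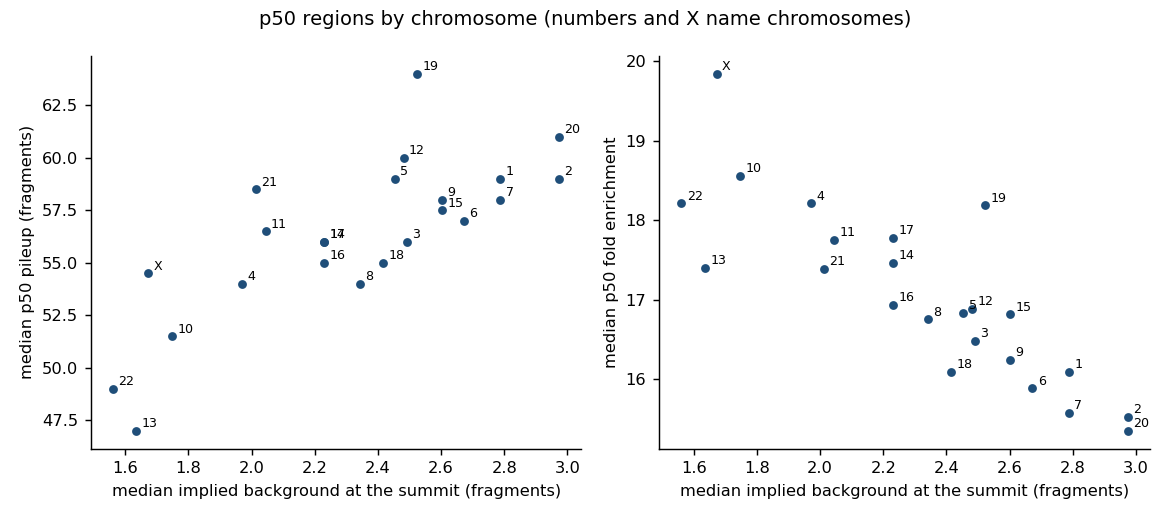
Median p50 pileup in fragments (left) and median p50 fold enrichment (right) against the median input background at the summit, in fragments, with 1 point for each of 23 chromosomes. Chromosomes 22, 13 and X lie lowest in background, from 1.56 to 1.67, and chromosomes 2 and 20 highest at 2.97, where fold enrichment is lowest (15.5 and 15.4).

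Whether p50 preferred promoters was examined through the distance of each region to the closest TSS. A p50 call was most frequent at TSSs and less frequent with distance. Of the union regions that overlapped a TSS, 2351 of 2447 (96.1%, 95.2 to 96.8) carried p50, against 428 of 542 (79.0%, 75.3 to 82.2) within 1 kb, 1944 of 2556 (76.1%) at 1 to 10 kb, 4581 of 6569 (69.7%) at 10 to 100 kb, and 1644 of 2693 (61.0%, 59.2 to 62.9) beyond. Since p50 itself adds regions to the union, the share was also taken over regions called for another subunit. It was 1318 of 1414 (93.2%, 91.8 to 94.4) at the TSS and 1230 of 2279 (53.97%, 51.9 to 56.0) beyond 100 kb. Most p50 regions nevertheless lay away from promoters, with 4581 (41.7%) at 10 to 100 kb and 2351 (21.4%) at a TSS.

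Width moved together with position. A p50 peak that overlaps a peak of another subunit can widen the union region. The rise of p50 calls with width is therefore partly fixed by construction, and the width classes below are not independent of the call. Median widths of p50 regions were 1375 bp at the TSS and 813.5 bp beyond 100 kb, and a p50 call was found in 54.1% of the narrowest and 92.6% of the widest of 4 equal width classes of union regions. Within the widest class, 1235 to 8787 bp, 98.5% of the TSS regions called for another subunit had p50 (97.5 to 99.1, 986 regions), against 85.7% of those beyond 10 kb (83.8 to 87.4, 1452 regions). In the third class, 864 to 1234 bp, these shares were 90.4% and 74.2%, and in the second class 71.9% and 58.7%. In the narrowest class, up to 618 bp, they were 28.9% (17.0 to 44.8, 38 regions) and 32.5% (30.5 to 34.6, 2017 regions), so that the difference was not found there.

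The p50 level, in contrast to the frequency of calls, hardly changed with distance. Median fold enrichment was 17.6 at the TSS, 16.5 within 1 kb, 17.2 at 1 to 10 kb, 16.6 at 10 to 100 kb and 16.2 beyond. Reads per kb followed the same flat course, with 106.9 at the TSS and 105.1 beyond 100 kb. The replicates differed in this comparison. Median signal value 1 was 330.6 at the TSS and 380.4 beyond 100 kb, whereas value 2 was 346.6 and 315.6. The log2 difference in median fold enrichment between regions within 1 kb of a TSS and those beyond 10 kb was 0.08, with -0.20 in value 1 and 0.08 in value 2, and a direction is thus not given by the replicates. At the upper end, the result depended on the measure. A fold enrichment of at least 40 was reached by 231 TSS regions (9.83%) and by 73 regions beyond 100 kb (4.44%). Among the 1000 highest regions, 28.4% overlapped a TSS by fold enrichment, 25.1% by value 2, 22.7% by pileup, 21.2% by value 1 and 16.6% (14.4 to 19.0) by reads per kb, beside 21.4% of all p50 regions. The share was thus above that of all p50 regions by fold enrichment and below it by reads per kb.

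**Figure D3:**
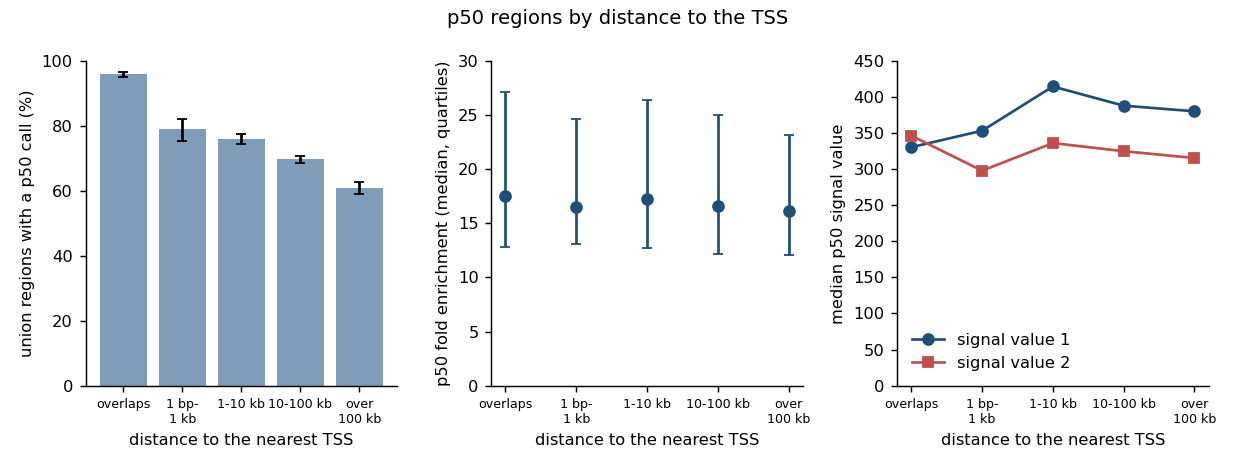
Left, share of union regions with a p50 call in percent with Wilson 95% intervals. Middle, median p50 fold enrichment with quartiles. Right, median p50 signal values 1 and 2, each by distance to the closest TSS. The share is 96.1% at the TSS and 61.0% beyond 100 kb, while the median fold enrichment lies between 16.2 and 17.6, and value 1 is the lower of both at the TSS only.

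For 983 of the 2351 TSS regions, the position and strand of the TSS could be worked out from the edges and signed distances of all regions of the gene. In these regions the p50 summit lay at a median of 12 bp upstream of the start, with quartiles of -235.5 and 366 bp relative to it, and 451 summits (45.9%) were within 250 bp. Summits of p50 alone were closer, with 57.7% within 250 bp (222 of 385), than those shared with another subunit with 38.3% (229 of 598). Since these regions overlap the start, their width limits this distance by construction. Over all p50 regions, those of p50 alone were narrower, with a median of 753 bp against 924 bp with p52 and 1233 bp with p52 and RelB. The part of width in this difference was not tested. Regions whose summit lay 250 to 0 bp upstream had a median fold enrichment of 16.6, with p50 alone in 51.8%, and those with a summit more than 500 bp upstream 23.8, with p50 alone in 19.4% and a median width of 2048.5 bp. Outside the TSS, upstream and downstream positions were unequal at close range, with 164 regions upstream and 264 downstream within 1 kb (38.3% upstream, 33.8 to 43.0, against 38.9% of all union regions).

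Genes were touched by 6690 p50 regions. Of these, 4339 (39.5% of p50 regions, 38.6 to 40.5) lay in a gene body without overlap of the TSS, where 70.2% of the union regions had p50. Another 1387 (12.6%) lay outside but within 10 kb of a gene. Farther than 100 kb from the closest gene, but within 1 Mb of it, were 757 (6.90%), where 57.5% of the union regions had p50. The 27 p50 regions without a gene within 1 Mb are not among them. Median fold enrichment was 16.6 in gene bodies and 16.1 far from genes.

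The other subunits called in a region went along with the p50 level. Regions of p50 alone numbered 3158 (28.8%, 27.9 to 29.6), those with p52 only 4732 (43.1%), those with p52 and RelB 2539 (23.1%), and those with all subunits 349 (3.18%, 2.87 to 3.52). Median fold enrichment was, in this order, 13.0, 17.9, 24.0 and 33.0. Both replicates gave the same order. Median signal value 1 was 236.3, 433.5, 639.4 and 994.5, and median value 2 was 217.7, 348.1, 581.1 and 831.4. A fold enrichment of at least 40 was found in 14 regions with p50 alone (0.443%), in 411 with p52 and RelB (16.2%) and in 125 with all subunits (35.8%). Regions with p50 and RelB but without p52 numbered 170, of which 19 also had RelA, with a median fold enrichment of 15.4.

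The log2 difference in median fold enrichment between shared and p50-only regions was 0.61, and it was 1.06 in value 1 and 0.93 in value 2. Reads per kb gave a smaller difference of 0.28. At the TSS, p50 alone made up 1033 of 2351 regions (43.9%, 41.9 to 46.0), against 22.7% (21.6 to 24.0) at 10 to 100 kb. There its median fold enrichment was 13.3, and that of shared TSS regions was 24.0, a log2 difference of 0.85 with 1.32 in value 1 and 1.12 in value 2. Beyond 100 kb the medians were 12.9 and 18.0, with differences of 0.47, 0.86 and 0.93. The frequent p50-only regions at promoters were thus weak in p50 relative to shared promoters in both replicates.

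**Figure D4:**
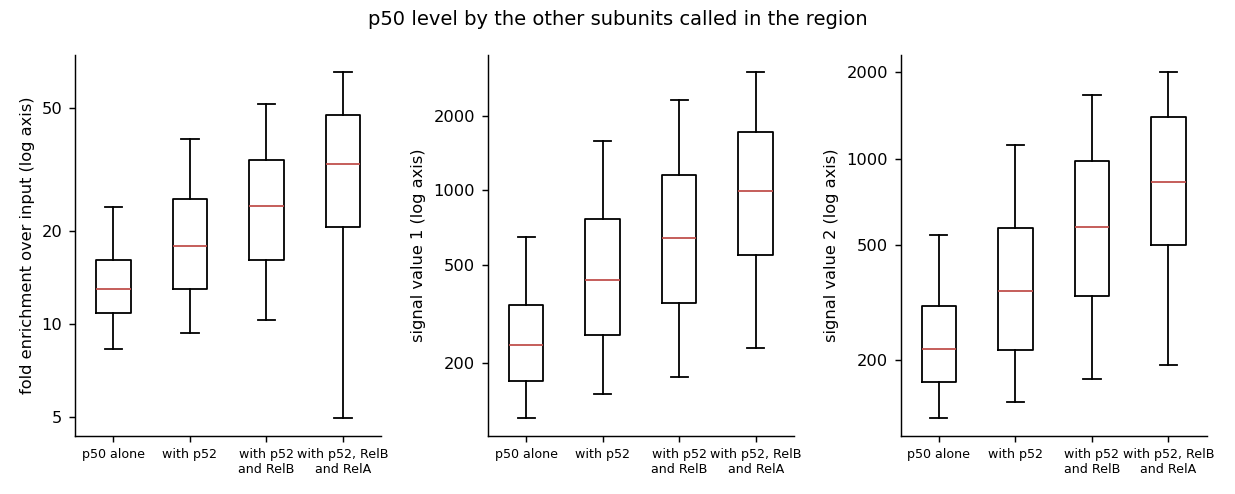
Fold enrichment of p50 over input and both p50 signal values (log axes) by the other subunits called in the region. Lines in the boxes are medians, boxes quartiles and whiskers the 5th and 95th percentiles over 3158, 4732, 2539 and 349 regions. Medians are higher from left to right in all panels, for fold enrichment from 13.0 to 33.0, and 22 of the 349 regions with all subunits were among those with high input.

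The strongest regions with p50 alone did not reach the level of the strongest shared ones. The highest, chr16:71255950-71256854, lay 382921 bp downstream of the start of ATBF1, a zinc finger transcription factor, with a fold enrichment of 53.9 and signal values of 2257 and 1291. It ranked at 175 among all p50 regions. The next, chr7:6014521-6015886, overlapped a TSS and had a fold enrichment of 47.8.

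The highest fold enrichment of all was 99.95, at chr19:10357268-10358532, a region 7154 bp upstream of TYK2, a Janus kinase gene of cytokine signaling. It had 450 reads, a pileup of 246, and signal values of 3800 and 2691. A different gene, without a known symbol, was closer to this region, at 4277 bp. The second was the region over the start of NFKB2, the gene of p100 and p52, with 91.0 and signal values of 1596 and 2305. Both regions had a background of 1.47 fragments, the floor that 1131 p50 regions shared. A low background raises fold enrichment by construction, so that this ranking depends on it. They were followed by chr7:154829667-154830966 with 89.4, which is 22424 bp from the closest TSS, and by NFKBIA with 88.7. Of the 10 highest, 9 had more than one other subunit called, and only the region on chromosome 22 at chr22:36944051-36945111 (82.0) had p52 alone beside p50. Both signal values of these 10 regions were above their medians over p50 regions, 379.7 and 327.3.

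Among the genes of NF-κB itself, 5 of 5 subunit genes had p50 at the TSS, beside 27.8% of the 8450 genes with a region. Symbols were known mainly from the study's target tables, so that this count is not independent evidence of binding. NFKB1 had 5 p50 regions of 7, with fold enrichments from 7.79 to 36.1 and the highest at the TSS. REL had 4 of 4, RELB 2 of 2 with 40.2 at the start and 24.0 in the gene, and RELA 2 of 2 with 39.9 at 9598 bp downstream and 35.6 at the start. The TSS region of RELA had signal values of 561 and 1006, and that of RELB 1190 and 831. BCL3, the gene of the p50 cofactor Bcl-3, had 4 p50 regions, with 70.0 at the start, 51.8 in the gene, and 45.7 and 38.7 upstream. Another BCL3 region, called for p52, had 46 p50 reads, 59.0 per kb, and no p50 call. NFKBIA had upstream regions of 16.4 and 22.9 beside its promoter. NFKBID, of the nuclear IκB protein IκBNS, had 34.6.

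TNFAIP3 had 11 p50 regions of 18, spread from 159025 bp upstream to 59695 bp downstream of the start, with fold enrichments between 10.8 and 53.4. TNIP1, which binds A20, had 7 of 7 with up to 51.2, and TRAF1, a TNF receptor adaptor, 5 of 5 with up to 49.0. BIRC2 reached 25.1, and CHUK, the kinase IKKα, 17.0. BCL10 had no region assigned.

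**Figure D5:**
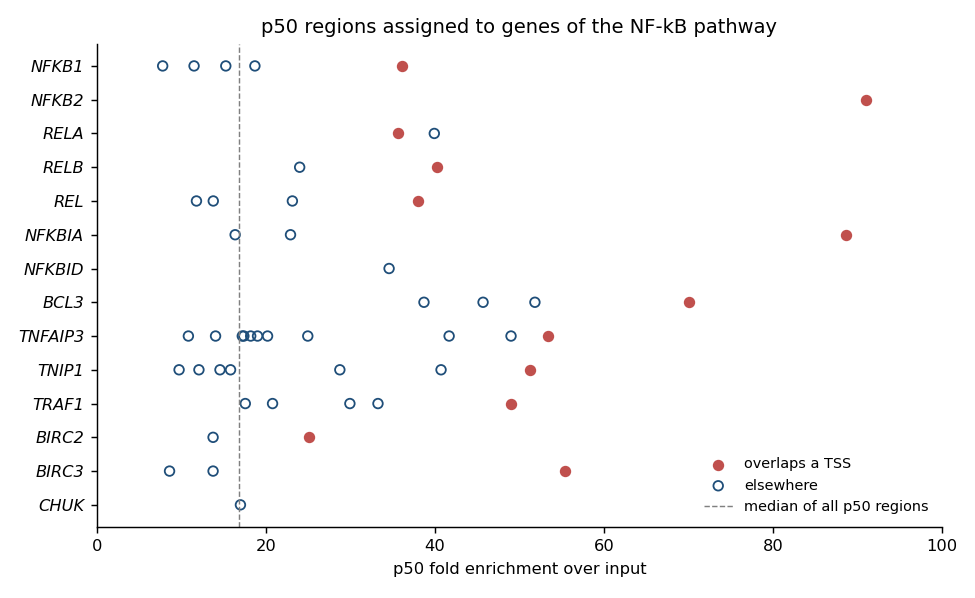
Fold enrichment of each p50 region (x axis) assigned to genes of the NF-κB family, its inhibitors and its signaling (rows). Filled points overlap a TSS, open points do not, and the dashed line is the median of all p50 regions, 16.8. In 11 of the 14 genes with p50 the TSS region is the highest, the others being RELA, NFKBID and CHUK.

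The symbols of only 1132 of the 8450 genes with a region were known, from the study's lists. Of the 8450, 7332 (86.8%) had a p50 region. Of 274 symbols written in 15 functional lists, 82 were paired with an identifier. Of these 82, 76 had a region and 75 a p50 region. Counts given for a list below cover its paired genes only, for example 7 of 20 B cell factors and 5 of 20 JAK-STAT genes. Of the 82, 61 came from tables in which the study listed target genes of NF-κB, so that their counts are not independent evidence of binding. Of these 61, 59 had a p50 region. The other 21 stood in an alphabetical part of the expression table. Of those 21, 16 (76.2%) had a p50 region and 9 (42.9%) had one at the TSS, beside 40.9% and 14.0% of the 1738 genes of that part. Counts per list below mix both sources, so that they are not compared between lists. A region counts for its closest gene and for the gene of its closest TSS. The highest value of a gene, as given below, can thus lie far from it. A gene without an assigned region can also lie under a region that counts for a neighboring gene.

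Among apoptosis regulators 7 of 10 had p50, with BID (55.0) and BBC3 (42.1), which encode the pro-apoptotic proteins Bid and Puma, and BCL2L1 (46.2), which encodes the survival protein Bcl-XL. BAX, BAK1 and BIRC5 had no region assigned. Of AP-1 and ATF factors 5 of 6 had p50, with JUN reaching 56.7 at 228688 bp upstream, and ATF4 had no region assigned. BATF reached 48.2 at 13887 bp from the gene, where the closest start was that of FLVCR2. ATF5 reached 44.3 at 4042 bp upstream, within another gene. In the JAK-STAT pathway 5 of 5 genes had p50, among them TYK2, given above, and STAT5A at 32.0. The interferon regulatory factor genes IRF5 (48.2), IRF2 (40.1) and IRF1 had p50, as did PRDM1 (15.9), the plasma cell repressor Blimp, which stood in the same list.

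Only 7 of the 20 B cell factors were paired, and 7 of 7 had p50. Among them were BCL6 (53.0), the germinal center repressor, TCF3 (50.6) and ETS1 (39.8), which had 9 p50 regions of 21. Chemokine genes and receptors had p50 in 7 of 8. CCR4 reached 47.6, in a region 40440 bp downstream of its start that was closer to another gene. Its ligand CCL17 had 46.5, CXCR4 had 34.0 at 163102 bp upstream, and CCL22 had regions of up to 17.4. CCL3 had a TSS region called for p52, with 70 p50 reads, 54.7 per kb, and no p50 call. Cytokine and receptor genes had p50 in 10 of 11, with CSF2 at 59.3, the cytokine receptor chain IL2RA at 53.9 and LTA at 46.4. IL6 had 11 p50 regions of 14, none above 18.0, and TNF had no region assigned. The LTA region was 5275 bp wide, with its summit 2891 bp downstream of the LTA start. Whether it reaches the neighboring TNF gene was not examined, so p50 at TNF is not excluded.

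TNF family genes TNFSF9 (50.3), TNFRSF9 (48.9) and CD40 (28.3) each had p50. Costimulation and adhesion genes had p50 in 6 of 6, led by CDH1 (65.4, E-cadherin), CD80 (43.4) and ICAM1 (39.2). Of the antigen presentation genes 4 of 4 had p50, with TAP1 at 32.9, B2M at 21.9 and HLA-E at 17.0. The cell cycle inhibitors CDKN2B and CDKN1A had 32.4 and 12.1, that of CDKN2B at 70270 bp upstream and closer to another gene. Of 20 housekeeping genes only ACTB and B2M had a paired symbol, and ACTB had 7 p50 regions. Groups found by name held 1 or 2 paired genes each, MAP3K5 (32.2) and MAP2K1 (15.7) of the MAP kinases, PSMD6 (22.2) of the proteasome, HIST1H4H (8.06) of the histones and ZNF81 (35.6) of the zinc finger genes. No ribosomal or mitochondrial ribosomal protein gene was paired.

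The number of p50 regions per gene was 1 in 4557 of 7332 genes and 10 or more in 32. The most were 18 of 22 regions at a gene without a known symbol, followed by ITPKB, an inositol trisphosphate kinase, with 16 of 19 and another gene without a known symbol with 16 of 18. CAMK1D, a calcium-dependent kinase, had 14 of 15, with 74.5 at its start and signal values of 2143 and 2241, whereas its other p50 regions lay between 10.1 and 33.3.

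Of the 24 amplicons that the study used for ChIP-qPCR, 4 were references placed where no recruitment was assumed, in ACTB, in POR and downstream of NFKBIA. Of the other 20, 18 lay in p50 regions, with fold enrichments from 9.35 to 88.7 and a median of 41.6. Of the references, that of ACTB lay in the TSS region of the gene, which was called for p50 alone, with a fold enrichment of 19.7, 472 reads and signal values of 346 and 418. The POR and distal NFKBIA references lay in no region. CD70, a TNF family ligand, had 78.4, with its summit 50.5 bp from the middle and signal values of 3574 and 903. TP73 had 42.9, and CCR7 19.9. The JUNB amplicon lay 2036 bp from the summit of its region, which had a fold enrichment of 9.35 and 875 reads, and CSF2 amplicon P3 lay in a region of 9.62. The other amplicons outside p50 regions were those of RELB and NFKB2, and the TSS regions of both genes began downstream of them.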

How the data were processed

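p50 ChIP-seq was analysed from the authors' table of union regions. Per the labels and the study's methods, reads were mapped to hg18 with Bowtie, sampled to 10000000 per library, and peaks called with MACS. The deposited read counts are whole reads per region, pooled over replicates. The deposited fold enrichment is a ratio over input, the deposited pileup a coverage signal at the summit, and each replicate has a signal value, a score of unnamed scale from which the authors took their IDR. The authors' IDR is a fraction and their MACS FDR a q-value, and all p50 regions had an IDR below 0.01. Distances are to Ensembl 54 genes within 1 Mb.

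From these, reads per kb, medians, shares with Wilson 95% intervals, and the input background were computed. No test was run, since regions are not replicates. The genes named were those next to the 10 highest regions by fold enrichment and by reads per kb, the 5 genes with the most p50 regions, the 3 highest of each list with members lacking p50, and the qPCR genes, where a symbol was known, some of which are not reported here, and the promoters and further genes were chosen after their values were seen. Members and lists were chosen with earlier results of these data known. Depth per library is not in the table used here, and counts were 28 to 3246 per p50 region. The study's supplement lists different numbers of mapped reads for the p50 replicates. The deeper replicate had a lower strand cross-correlation, a measure of enrichment. The part of these in the replicate differences was not tested. Scripts were tested on simulated data. Alternatives were stricter IDR, FDR or fold enrichment, other measures, windows, and exclusion of regions with high input. Calculations used scipy 1.17.1, pandas 2.3.3, numpy 2.4.6 and matplotlib 3.10.9 in Python 3.11.15.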

Additional observations from a re-analysis of the deposited data

How the results depend on the processing

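No paired analysis was possible because the replicates were merged in all values but the 2 signal values, and the Input libraries have no values of their own. Of 39 alternative values, 32 stayed within the limits set for them, 6 moved and 1 reversed. An IDR below 0.01 and an FDR below 1e-05 removed no p50 region, and they say nothing on stability. Values under them are nevertheless counted among the 32, as is the fall from 10975 to 7813 regions at an IDR below 0.001. The count of 32 is therefore no measure of stability. The share of p50 regions near a TSS, 25.3% within 1 kb, was 34.9% within 5 kb, by the construction of the window. The share of p50 regions with another subunit, 71.2%, was 68.5% with summits within 250 bp and 82.0% at an IDR below 0.001, an alternative chosen after seeing the data, which kept 7813 regions. The log2 difference between shared and p50-only regions, 0.61, was 0.93 to 1.06 with single signal values and 0.28 with reads per kb. The difference between regions within 1 kb of a TSS and those beyond 10 kb, 0.08, was -0.20 to 0.079 with single signal values, thus reversed in value 1, and the cause was not tested. Removal of the 28 regions with high input changed none of the 8 values it was applied to beyond these limits. The merged counts, pileup and fold enrichment could not be recomputed without a replicate.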
